A study of Homo sapiens with 12 samples.

Results

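The Fc receptors and the adaptor chains through which they signal were followed over 4 groups of arrays from leukaemia cell lines. The members were 10 genes: the adaptors FCER1G and TYROBP, the IgG receptors FCGR1A, FCGR2A, FCGR2B and FCGR3B, the IgA receptor FCAR, the IgE receptors FCER1A and FCER2, and the neonatal Fc receptor FCGRT. Every probe set that the platform annotation gives to a member was taken, which was 17 of the 22215 probe sets tested. Of these, 15 name a single gene. The other two are shared, 204006_s_at between FCGR3B and FCGR3A, and 216950_s_at between FCGR1A and its relatives FCGR1BP and FCGR1CP. FCAR had 5 probe sets and FCER2 had 2. Of the member genes, 6 lie on chromosome 1 and 4 on chromosome 19.

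The study placed an shRNA against CHD4, the ATPase of the NuRD chromatin remodelling complex, in MV4-11 and U937 cells. Both are established human myeloid lines, which the labels call acute myeloid leukaemia cells. The 4 groups, each of 3 arrays, were MV4-11 with CHD4 shRNA, MV4-11 with scrambled shRNA, U937 with CHD4 shRNA and U937 with scrambled shRNA. All cells carried a lentiviral vector with green fluorescent protein, all grew in RPMI with serum and penicillin/streptomycin, and the labels name no other treatment. How many hairpins or clones a group holds is not stated in the labels. The series description calls the triplicates biological.

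Fc receptors bind the constant part of antibodies and let myeloid cells act on coated particles. Most activating members hold no signalling tail of their own and sit in the membrane with FCER1G, whose ITAM tyrosines are phosphorylated by SRC family kinases and then recruit SYK. TYROBP, also called DAP12, does the same for TREM2, CLEC5A and other receptors, while FCGR2B carries an inhibitory ITIM and recruits phosphatases.

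The promoters are shown for the adaptors and FCER1A, the genes the results below turn on. They are from RefSeq (GRCh38.p14), which held 9 of the 10 members, and run over the 250 bases before the start of each gene, in the direction of the gene. The FCER1G window is chr1:161215045-161215294 on the plus strand, the TYROBP window chr19:35908296-35908545 on the minus strand, and the FCER1A window chr1:159302086-159302335 on the plus strand. Capitals mark the ETS-type motif AGGAAG or its reverse complement CTTCCT, and the GATA-type motif AGATAA or its reverse complement TTATCT.
FCER1G: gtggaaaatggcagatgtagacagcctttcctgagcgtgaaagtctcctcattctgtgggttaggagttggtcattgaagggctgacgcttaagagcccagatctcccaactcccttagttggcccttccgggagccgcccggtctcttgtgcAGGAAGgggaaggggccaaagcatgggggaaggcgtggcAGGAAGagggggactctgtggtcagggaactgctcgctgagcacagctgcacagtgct
TYROBP: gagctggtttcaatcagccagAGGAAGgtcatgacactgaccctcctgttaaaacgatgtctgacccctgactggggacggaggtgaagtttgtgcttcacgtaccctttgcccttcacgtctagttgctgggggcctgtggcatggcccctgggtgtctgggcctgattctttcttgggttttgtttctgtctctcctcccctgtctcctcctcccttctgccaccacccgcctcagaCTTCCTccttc
FCER1A: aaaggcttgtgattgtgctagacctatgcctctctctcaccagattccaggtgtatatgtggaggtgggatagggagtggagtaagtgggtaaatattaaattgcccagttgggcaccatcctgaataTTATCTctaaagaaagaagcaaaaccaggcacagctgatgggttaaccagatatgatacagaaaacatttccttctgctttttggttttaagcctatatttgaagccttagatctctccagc
Both strands were searched, and the motifs do not overlap each other in these windows. FCER1G and TYROBP each held 2 copies of the ETS-type motif and FCER1A held 0. FCER1A held 1 copy of the GATA-type motif, and FCER1G and TYROBP held 0. Of 27305 RefSeq promoters of this length, 28.7% held at least 1 copy of the ETS-type motif and 9.4% at least 1 of the GATA-type motif. The share with 2 copies was not counted. A match of these letters is a description of the sequence and not a site of binding.

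Values are log2 RMA values, folds are made from differences of mean log2 values, and adjusted p is from limma with Benjamini-Hochberg adjustment over all 22215 probe sets. The threshold was an adjusted p below 0.05. The 3 CHD4 probe sets were lower with CHD4 shRNA in both lines, with log2 differences between -2.00 and -1.76 in MV4-11 and between -2.20 and -1.75 in U937. Of 10 myeloid marker genes 8 were measured. Over the 12 arrays LYZ lay at 13.16 to 14.01 and ITGB2 at 11.48 to 12.31, while MPO lay at 4.97 to 6.13, SPI1 at 6.26 to 6.68 and CD14 among the dimmest 25% of probe sets. MV4-11 CHD4 shRNA replicates 2 and 3 stood farthest from the other arrays of their group, with root mean square deviations of 0.315 and 0.314 log2 units, where the other arrays lay between 0.175 and 0.272. In MV4-11, arrays of the same replicate number deviated together, so values with the number as a block are given for member probe sets where they change a call. For the pathway lists below only counts are given with the block, and the values of single list genes are from the fit without it. Of the member probe sets, 6 were among the dimmest 25%: those of FCGR1A, FCGR3B and FCER1A, both FCAR probe sets 211306_s_at and 211307_s_at, and the shared 204006_s_at. Background signal compresses differences at such levels.

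FCER1G, the common ITAM-bearing gamma chain, rose with CHD4 shRNA in both lines. In MV4-11 it measured 11.60, 11.60 and 11.20 with CHD4 shRNA, against 10.07, 10.01 and 10.10 with scrambled shRNA. In U937 it measured 11.10, 11.22 and 11.51 with CHD4 shRNA, against 10.26, 10.34 and 9.47 with scrambled shRNA. Every CHD4 shRNA array lay above every scrambled array, by at least 1.10 log2 units in MV4-11 and 0.76 in U937. The rise was 2.65-fold in MV4-11 (log2 difference 1.41, SE 0.20, limma adjusted p = 0.00170) and 2.38-fold in U937 (log2 difference 1.25, SE 0.20, limma adjusted p = 0.00392).

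Myeloid markers were read beside FCER1G. The summed log2 level of the 8 measured was 64.20 to 66.67 in MV4-11 with CHD4 shRNA and 62.65 to 63.37 with scrambled shRNA, and 65.55 to 65.80 in U937 with CHD4 shRNA and 63.48 to 65.01 with scrambled shRNA, so it was higher with CHD4 shRNA on every array of a line. Of the 8, ITGAM alone was past the threshold in MV4-11 (log2 difference 1.41, limma adjusted p = 0.00212), and none was in U937, where ITGAM had 0.66 (limma adjusted p = 0.0977). These ITGAM values are of 205786_s_at, and its dimmer probe set 205785_at had -0.11 in MV4-11 and -0.02 in U937. In MV4-11 CSF1R had -0.15 and FCN1 -0.17, and the others beside ITGAM lay between 0.06 and 0.36. The MV4-11 sum thus rests mostly on ITGAM. The part of these markers in the FCER1G result was not tested.

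The FCER1G rises in the lines were of similar size. Their difference, MV4-11 minus U937, was 0.15 log2 units with a 95% interval of -0.46 to 0.76 (limma adjusted p = 0.96). The scrambled controls of the lines also lay close together, at 10.06 ± 0.05 in MV4-11 and 10.02 ± 0.48 in U937 (SD, n = 3 each). U937 scrambled replicate 3, at 9.47, was the lowest array, and without it the U937 difference was 0.98.

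TYROBP, the DAP12 adaptor, was higher on every CHD4 shRNA array of a line than on any scrambled array of it, but did not pass the threshold. In MV4-11 it measured 10.50, 10.87 and 10.42 with CHD4 shRNA, against 9.64, 10.39 and 10.14 with scrambled shRNA. In U937 it measured 10.20, 10.24 and 10.23 with CHD4 shRNA, against 9.78, 9.94 and 8.86 with scrambled shRNA. The gap between the groups was only 0.03 in MV4-11 and 0.26 in U937, so these arrays barely separate in MV4-11.

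The TYROBP difference was 0.54 log2 units in MV4-11 (SE 0.25, 95% interval 0.00 to 1.08, limma adjusted p = 0.22) and 0.70 in U937 (SE 0.25, 95% interval 0.16 to 1.23, limma adjusted p = 0.15). With the replicate number as a block in MV4-11 alone, the difference passed (limma adjusted p = 0.0317), and the same-numbered arrays differed by 0.86, 0.48 and 0.28. With a block within each line the MV4-11 value was again not past (limma adjusted p = 0.0891), and the U937 value lay just short of the threshold (limma adjusted p = 0.0530). Without MV4-11 scrambled replicate 1 the MV4-11 difference was 0.33 (limma adjusted p = 0.54), and without U937 scrambled replicate 3 the U937 difference was 0.36 (limma adjusted p = 0.41).

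**Figure D1:**
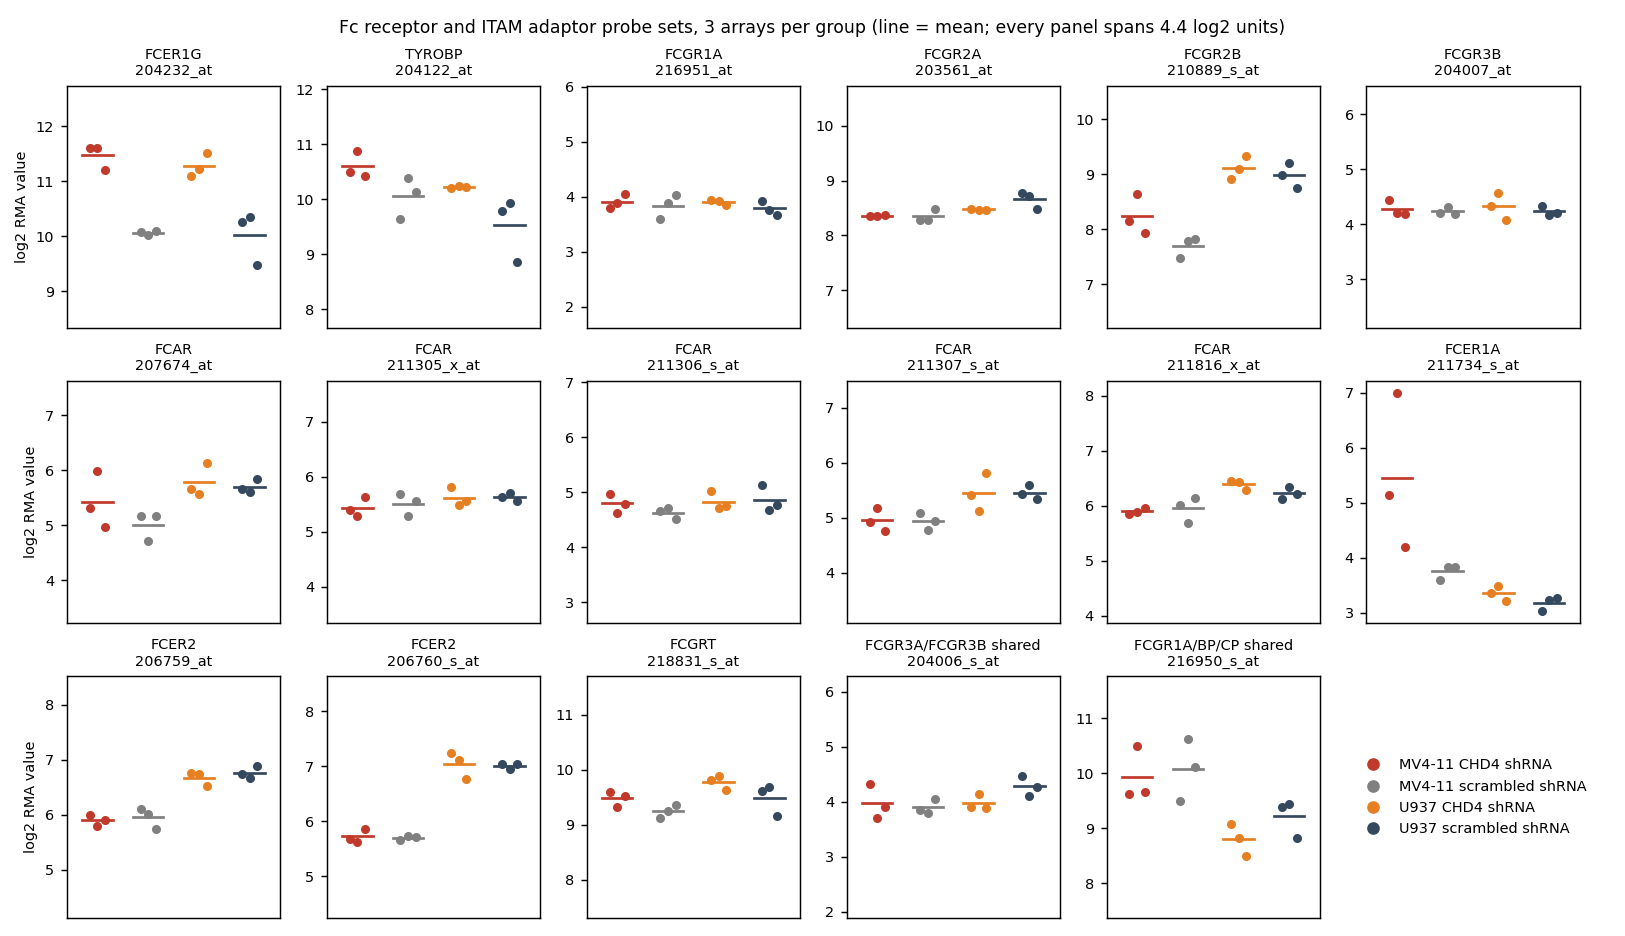
Log2 RMA value of the member probe sets on each of the 12 arrays (vertical axes) in the 4 groups, MV4-11 CHD4 shRNA, MV4-11 scrambled shRNA, U937 CHD4 shRNA and U937 scrambled shRNA. Points are arrays and bars are group means. FCER1G lies at 11.20 to 11.60 and 11.10 to 11.51 with CHD4 shRNA, above all scrambled arrays of the line.

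FCER1A, the IgE-binding alpha chain of the high-affinity receptor of mast cells and basophils, was the other member past the threshold in MV4-11. It measured 5.14, 7.00 and 4.20 with CHD4 shRNA, against 3.59, 3.84 and 3.84 with scrambled shRNA. The CHD4 shRNA arrays all lay above the scrambled arrays but differed from each other far more than the arrays of any other group did. The measured rise was 3.23-fold (log2 difference 1.69, SE 0.47, limma adjusted p = 0.0469). The scrambled arrays lay at the level of dim probe sets, and without detection calls it is not known whether FCER1A was above background there, so this fold depends on the background level. In bulk RNA, more cells that express the gene and more transcript per cell cannot be told apart.

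The FCER1A call was close to the threshold and passed in 8 of 21 alternatives, with limma adjusted p from 0.0017 to 0.180. Without replicate 2 of the CHD4 shRNA arrays the difference was 0.91 (limma adjusted p = 0.031), without replicate 3 it was 2.31 (limma adjusted p = 0.0017), and without replicate 1 it was 1.84 (limma adjusted p = 0.0987). It was not past the threshold without any other single array of the 12 (limma adjusted p from 0.0533 to 0.116), nor in a fit on the MV4-11 arrays alone (0.180) or with the replicate number as a block in that fit (0.0504). It passed with the block within each line (0.0199). Same-numbered arrays differed by 1.55, 3.16 and 0.36.

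In U937, FCER1A stayed at the low end of the table, at 3.36, 3.48 and 3.21 with CHD4 shRNA, against 3.03, 3.23 and 3.27 with scrambled shRNA. These arrays overlap, and the log2 difference of 0.17 was not past the threshold (limma adjusted p = 0.92). The MV4-11 difference exceeded that of U937 by 1.52 log2 units with a 95% interval of 0.08 to 2.96, but this was not past the threshold (limma adjusted p = 0.94).

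Other mast cell and basophil markers were read beside FCER1A. Of 7 such genes 6 were measured, and their summed log2 level was 39.98 to 43.24 in MV4-11 with CHD4 shRNA, 38.73 to 39.71 in MV4-11 with scrambled shRNA, 37.97 to 38.07 in U937 with CHD4 shRNA and 36.69 to 37.90 in U937 with scrambled shRNA. KIT, the stem cell factor receptor, rose in MV4-11, with 6.61, 6.74 and 6.77 with CHD4 shRNA against 5.94, 5.96 and 6.06 with scrambled shRNA (log2 difference 0.72, limma adjusted p = 0.00440). KIT did not follow FCER1A from array to array, since its CHD4 shRNA arrays lay close together.

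HDC, which makes histamine, measured 6.11, 7.85 and 6.46 in MV4-11 with CHD4 shRNA, against 5.52, 6.27 and 5.91 with scrambled shRNA (log2 difference 0.91, limma adjusted p = 0.133). GATA2, a transcription factor of the mast cell lineage and of early progenitors, measured 8.24, 9.92 and 8.17 with CHD4 shRNA, against 7.83, 8.85 and 8.15 with scrambled shRNA (log2 difference 0.50, limma adjusted p = 0.51). The mast cell proteases CPA3 and CMA1 were among the dimmest 25% of probe sets and TPSAB1 had a log2 difference of -0.30 (limma adjusted p = 0.44).

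Replicate 2 was the highest CHD4 shRNA array for FCER1A and for 3 of the 6 measured mast cell and basophil markers, HDC, GATA2 and CPA3, and the lowest for 2, TPSAB1 and CMA1. It was also the highest for 7 of 8 myeloid, 3 of 6 neutrophil and 2 of 4 platelet and megakaryocyte markers. Of 6 B cell markers it was the highest for 0 and the lowest for 4. Of 8 natural killer and T cell markers it was the highest for 1 and the lowest for 5. Over all lists replicate 2 was the highest for 16 of 38 markers and the lowest for 16. For HDC and GATA2 it was the highest scrambled array too. The neutrophil markers summed to 34.51 to 36.16 in MV4-11 with CHD4 shRNA and 33.52 to 33.64 with scrambled shRNA, and 0 of 6 passed. The platelet and megakaryocyte markers summed to 25.09 to 26.78 in MV4-11 with CHD4 shRNA and 24.12 to 24.58 with scrambled shRNA, where ITGA2B, the platelet integrin alpha chain, rose by 0.97 (limma adjusted p = 0.0129). The sums of the neutrophil list, the platelet and megakaryocyte list and the myeloid list were higher on every MV4-11 CHD4 shRNA array than on any MV4-11 scrambled array. So was the mast cell and basophil sum. The sums of the B cell list and of the natural killer and T cell list overlapped. FCER1A did not pass in U937. The mast cell and basophil sum there was 37.97 to 38.07 with CHD4 shRNA and 36.69 to 37.90 with scrambled shRNA, so those arrays did not overlap either. In U937 the platelet and megakaryocyte sum was 24.95 to 26.16 with CHD4 shRNA and 23.66 to 24.27 with scrambled shRNA. ITGA2B rose in U937 too, by 1.297 (limma adjusted p = 0.00343), while PF4 had 0.22, GP9 -0.01 and PPBP 0.13 without passing. In MV4-11 PF4 had 0.01, GP9 -0.03 and the dim PPBP 0.44. The platelet and megakaryocyte sum thus rests mostly on ITGA2B in both lines. The part of the marker lists in the FCER1A result was not tested.

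**Figure D2:**
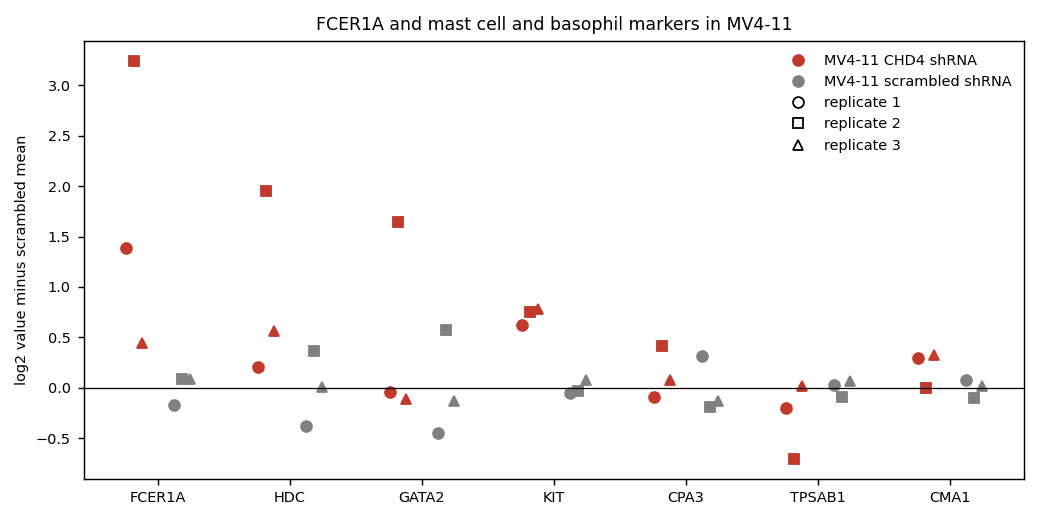
Log2 value minus the mean of the MV4-11 scrambled arrays (vertical axis) for FCER1A and the mast cell and basophil markers in MV4-11, with CHD4 shRNA left of scrambled shRNA for each gene and a point for each array, its shape the replicate. Among the CHD4 shRNA arrays replicate 2 is the highest for FCER1A, HDC and GATA2, while the KIT points lie close together.

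The remaining activating receptors did not pass the threshold with CHD4 shRNA in either line. FCGR2A, an IgG receptor with an ITAM in its own tail, measured 8.36, 8.36 and 8.37 in MV4-11 with CHD4 shRNA, against 8.29, 8.28 and 8.48 with scrambled shRNA. In U937 it measured 8.49, 8.47 and 8.47 with CHD4 shRNA, against 8.77, 8.72 and 8.49 with scrambled shRNA. The log2 difference was 0.01 in MV4-11 (limma adjusted p = 0.96; 95% interval -0.19 to 0.22) and -0.18 in U937 (limma adjusted p = 0.36; 95% interval -0.39 to 0.02).

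FCGR1A, the high-affinity IgG receptor that pairs with FCER1G, had a dim probe set of its own, 216951_at, at 3.59 to 4.05 on all 12 arrays. The probe set it shares with FCGR1BP and FCGR1CP, 216950_s_at, was bright. In MV4-11 this shared probe set measured 9.63, 10.50 and 9.66 with CHD4 shRNA, against 9.49, 10.63 and 10.12 with scrambled shRNA. In U937 it measured 9.07, 8.82 and 8.50 with CHD4 shRNA, against 9.38, 9.45 and 8.83 with scrambled shRNA. The groups overlap in both lines, and the log2 differences of -0.15 in MV4-11 and -0.42 in U937 did not pass (limma adjusted p = 0.83 and 0.53). The transcripts of these relatives cannot be told apart with it.

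FCGR3B, the lipid-anchored IgG receptor of neutrophils, lay at 4.08 to 4.56 on every array, and the probe set shared with FCGR3A, the receptor of natural killer cells and macrophages, at 3.70 to 4.47. Neither differed past the threshold with CHD4 shRNA. FCAR, the IgA receptor that pairs with FCER1G, was low to moderate on its 5 probe sets. The largest of its differences was on 207674_at in MV4-11, with 5.31, 5.98 and 4.96 with CHD4 shRNA against 5.16, 4.71 and 5.17 with scrambled shRNA (log2 difference 0.40, limma adjusted p = 0.33). Replicate 2 was again the highest CHD4 shRNA array there, and the groups overlap. The other 4 FCAR probe sets had log2 differences between -0.07 and 0.17 in MV4-11, and in U937 all 5 lay between -0.03 and 0.16.

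FCGR2B, the inhibitory IgG receptor, was higher with CHD4 shRNA in MV4-11 without passing the threshold. It measured 8.15, 8.64 and 7.93 with CHD4 shRNA, against 7.48, 7.78 and 7.83 with scrambled shRNA. The arrays do not overlap, with a gap of 0.10, and the log2 difference was 0.54 (SE 0.18, limma adjusted p = 0.0915). Without CHD4 shRNA replicate 3 it was 0.70 and passed (limma adjusted p = 0.0238), without CHD4 shRNA replicate 2 it was 0.34 (limma adjusted p = 0.32), and without scrambled replicate 1 it was 0.435 (limma adjusted p = 0.245). In U937 it measured 8.91, 9.09 and 9.34 with CHD4 shRNA, against 8.98, 9.21 and 8.75 with scrambled shRNA, which overlap (log2 difference 0.13, limma adjusted p = 0.80). The difference between the lines' changes, 0.41, had a 95% interval of -0.15 to 0.97.

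FCER2, the low-affinity IgE receptor CD23, had small differences with CHD4 shRNA. Its 206760_s_at measured 5.68, 5.63 and 5.87 in MV4-11 with CHD4 shRNA, against 5.67, 5.74 and 5.71 with scrambled shRNA, and 7.25, 7.11 and 6.77 in U937 with CHD4 shRNA, against 7.04, 6.96 and 7.04 with scrambled shRNA. Over both FCER2 probe sets and both lines the log2 differences lay between -0.09 and 0.03, with 95% intervals within -0.34 to 0.28, and the groups overlapped in each line. FCGRT, which salvages IgG from endosomes, measured 9.59, 9.33 and 9.52 in MV4-11 with CHD4 shRNA, against 9.12, 9.25 and 9.36 with scrambled shRNA. In U937 FCGRT measured 9.81, 9.88 and 9.63 with CHD4 shRNA, against 9.61, 9.68 and 9.16 with scrambled shRNA. Its groups overlap slightly, and the log2 differences of 0.24 in MV4-11 and 0.29 in U937 did not pass (limma adjusted p = 0.35 and 0.30).

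Counted over all members, 2 of 17 probe sets rose and 0 fell with CHD4 shRNA in MV4-11, which is 11.8%, where 7.47% of all probe sets were past the threshold, 3.88% higher and 3.59% lower. In U937, 1 of 17 rose and 0 fell, which is 5.88%, against 4.51% of all probe sets, 1.86% higher and 2.65% lower. Arrays with CHD4 shRNA lay clear of the scrambled arrays for 4 member probe sets in MV4-11 (23.5%), all of them higher, where 23.8% of all probe sets did so, 10.8% higher and 13% lower. In U937 they did so for 2 (11.8%), both higher, where 24.2% of all probe sets did, 10.9% higher and 13.3% lower. The members' median log2 difference was 0.07 in MV4-11 and 0.09 in U937, beside -0.03 and -0.00 over all probe sets. The members as a set were thus near the background, and FCER1G was the probe set that passed in both lines.

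**Figure D3:**
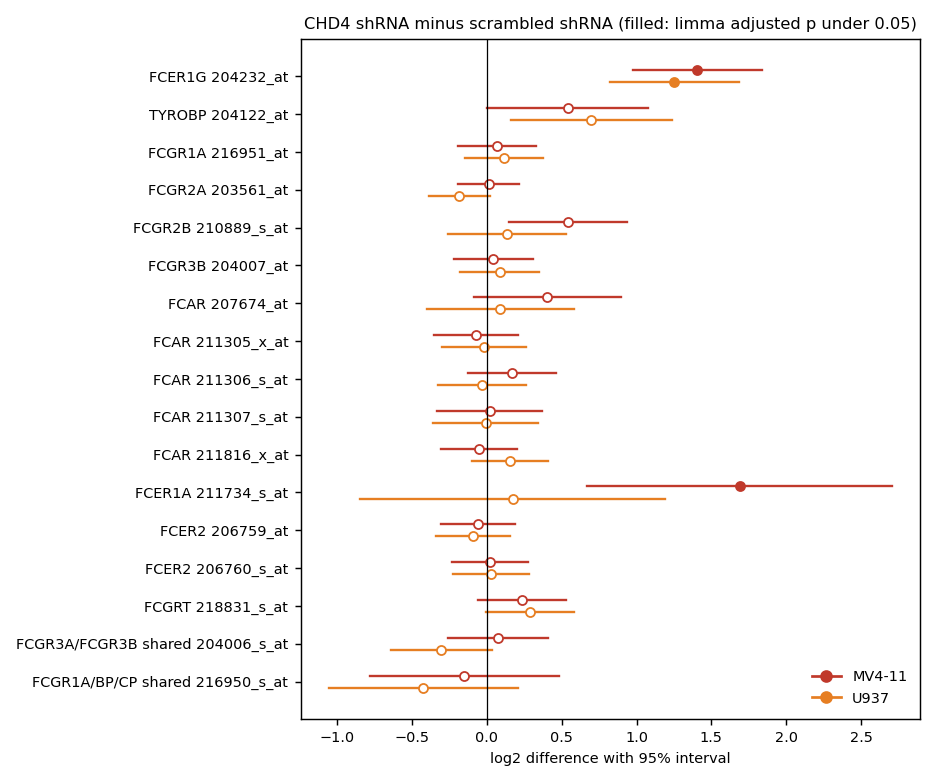
Log2 difference, CHD4 shRNA minus scrambled, of the 17 member probe sets with 95% intervals (horizontal axis), in MV4-11 and in U937. Filled points have a limma adjusted p under 0.05: FCER1G (1.41) and FCER1A (1.69) in MV4-11, and FCER1G (1.25) in U937.

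No member's change differed between the lines past the threshold, where 0 of all 22215 probe sets did (0%), although 979 of them and 1 member probe set, that of FCER1A, had an unadjusted limma p under 0.05. The lowest adjusted p over all probe sets in this comparison was 0.49.

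The lines themselves differed in FCGR2B and FCER2. Between the scrambled controls, FCGR2B and both probe sets of FCER2 were lower in MV4-11 than in U937. FCGR2B measured 7.48, 7.78 and 7.83 in MV4-11, against 8.98, 9.21 and 8.75 in U937, which is 2.43-fold lower (log2 difference -1.28, SE 0.18, limma adjusted p = 0.00150). FCER2 206760_s_at measured 5.67, 5.74 and 5.71 in MV4-11, against 7.04, 6.96 and 7.04 in U937, which is 2.47-fold lower (log2 difference -1.31, SE 0.12, limma adjusted p = 5.5e-05). FCER2 206759_at measured 6.11, 6.01 and 5.75 in MV4-11, against 6.74, 6.67 and 6.89 in U937, which is 1.75-fold lower (log2 difference -0.81, SE 0.11, limma adjusted p = 0.00146). In each case the arrays of the lines lay well apart.

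FCGR2C, which is nearly identical to FCGR2B over much of its sequence, was lower in MV4-11 on 211395_x_at (log2 difference -0.61, limma adjusted p = 0.00854), and its other probe sets had -0.30 and -0.07 without passing. Probes may cross-hybridise between these genes. The level of FCGR2B was lowest in scrambled MV4-11, then in MV4-11 with CHD4 shRNA, which did not differ from it past the threshold, and the U937 groups overlapped at the top. Its MV4-11 CHD4 shRNA arrays, at most 8.64, stayed below every U937 array.

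Among the others, the shared FCGR1 probe set was higher in MV4-11 by 0.86 (SE 0.29, limma adjusted p = 0.123), and without scrambled MV4-11 replicate 1 by 1.16 and past the threshold (limma adjusted p = 0.0355). The probe set annotated to FCGR1BP alone, 214511_x_at, had 0.78 (limma adjusted p = 0.165). Its probes may cross-hybridise with the relatives of FCGR1BP, so it is not a separate measure of that gene. FCAR 207674_at and 211307_s_at had log2 differences of -0.69 and -0.51, with arrays that do not overlap, without passing (limma adjusted p = 0.115 and 0.0995). Both passed in a fit on the scrambled arrays alone (limma adjusted p = 0.0201 and 0.0313), 207674_at passed without MV4-11 CHD4 shRNA replicate 2 (0.0335) and 211307_s_at without U937 CHD4 shRNA replicate 3 (0.0454), and the mean of the FCAR probe sets had -0.37 and passed (limma adjusted p = 0.0462). FCGR2A had -0.31 (limma adjusted p = 0.0896), and -0.40 and past the threshold without U937 scrambled replicate 3 (limma adjusted p = 0.0424). TYROBP had 0.53 (limma adjusted p = 0.27). FCER1A had 0.58 with arrays that do not overlap (limma adjusted p = 0.55).

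In this comparison 0 member probe sets were higher and 3 lower, which is 17.6%, against 4.45% of all probe sets, 2.37% higher and 2.08% lower. Of the 3 lower, 2 are of FCER2. The arrays of the lines did not overlap for 7 member probe sets lower in MV4-11 and 2 higher (52.9% in all), where 25% of all probe sets did not, 10.9% higher and 14.1% lower. The members' median was -0.24, beside -0.04 over all probe sets. Member probe sets that share a gene are not independent.

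**Figure D4:**
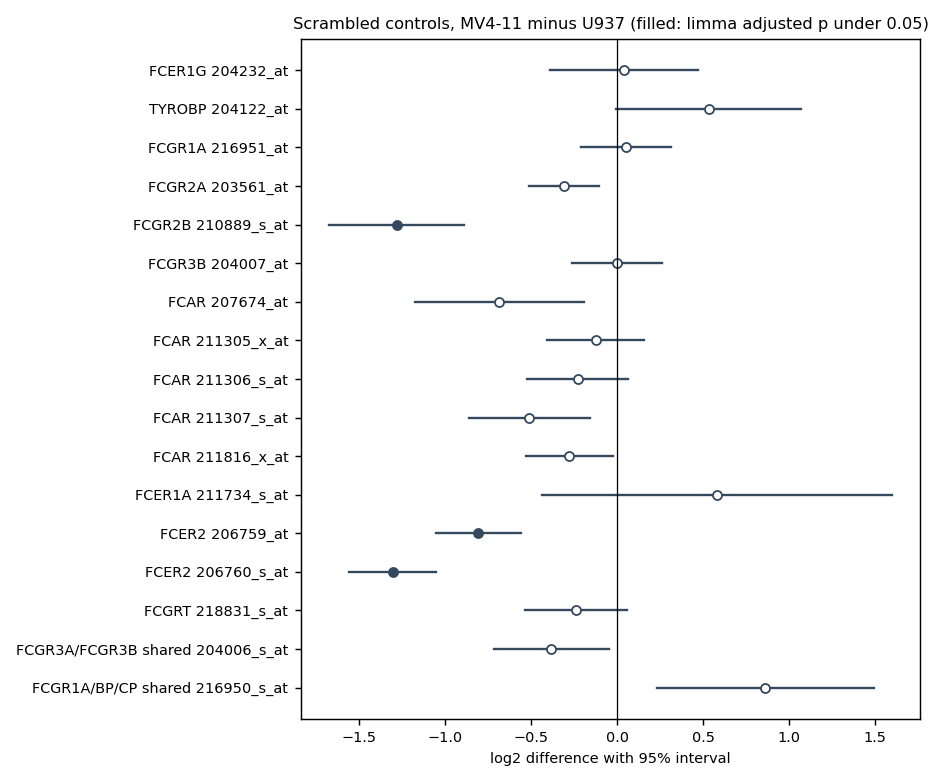
Log2 difference between the scrambled controls, MV4-11 minus U937, of the 17 member probe sets with 95% intervals (horizontal axis). Filled points have a limma adjusted p under 0.05, which are FCGR2B (-1.28) and the FCER2 probe sets (-0.81 and -1.31).

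The wider Fc receptor pathway was read from 6 lists of 158 genes, 114 of them measured, with the probe set of highest mean for each gene. The lists were written with earlier results of these data known, so their shares beside those of all genes are only a description. In MV4-11 with CHD4 shRNA, 15 of the 114 rose and 7 fell, which is 19.3%, where 8.75% of all 11963 genes were past the threshold, 4.39% higher and 4.36% lower. In U937, 6 rose and 3 fell, which is 7.89%, against 5.53% of all genes, 2.29% higher and 3.23% lower. Dim genes are fewer in the lists than among all genes. Without the dimmest 25% of probe sets, 25 of 103 list genes passed in MV4-11 (24.3%), against 11.6% of 9512 genes. The U937 count was then 11 (10.7%, against 7.67%). The median log2 difference over the lists was 0.07 in both lines, beside -0.03 in MV4-11 and -0.00 in U937 over all genes. With the replicate number as a block the MV4-11 count was 37 within each line, which is 32.5% against 18.6% of all genes in that fit, and 35 in MV4-11 alone, 30.7% against 14.8%. The U937 count with the block within each line was 17, 14.9% against 11.4%.

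The MV4-11 count of 22 moved by over 1.5 times without several single arrays. The count over all genes moved too. Leaving out CHD4 shRNA replicate 1 gave 8 (7.02%, against 2.95% of all genes in that fit), and leaving out replicate 2 gave 10 (8.77%, against 4.92%). Leaving out scrambled replicate 2 gave 12 (10.5%, against 4.55%), and leaving out scrambled replicate 3 gave 11 (9.65%, against 4.50%). The U937 count of 9 was 4 (3.51%) without CHD4 shRNA replicate 2 or 3 or scrambled replicate 3, against 2.21%, 2.72% and 2.83% of all genes. It was 5 (4.39%) without scrambled replicate 1 or 2, against 2.47% and 2.94% of all genes.

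Of genes listed as receptors that signal through FCER1G or TYROBP, 5 of 21 measured rose in MV4-11 and 0 fell. The list also holds integrin and cytokine receptor chains, with ITGAM and CSF2RB among the risers. That is 23.8%, where 8.75% of all genes were past the threshold, 4.39% higher and 4.36% lower. CLEC5A, a C-type lectin that pairs with TYROBP, averaged 9.43 ± 0.81 in MV4-11 with CHD4 shRNA and 7.24 ± 0.70 with scrambled shRNA (SD, n = 3 each; log2 difference 2.19, limma adjusted p = 0.00483). In U937 CLEC5A averaged 10.13 ± 0.02 with CHD4 shRNA and 9.80 ± 0.41 with scrambled shRNA (SD, n = 3 each), a difference that did not pass (limma adjusted p = 0.75). ITGAM, the alpha chain of the complement receptor Mac-1, rose by 1.41 in MV4-11 on 205786_s_at (limma adjusted p = 0.00212), but its dimmer probe set had -0.11. CSF2RB, the common beta chain of the GM-CSF, IL-3 and IL-5 receptors, rose by 1.14 (limma adjusted p = 0.00882).

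The remaining risers of this list in MV4-11 were TREM2, a lipid-sensing receptor that pairs with TYROBP (1.05), and LILRA1, a leukocyte immunoglobulin-like receptor (0.63), on limma adjusted p of 0.0207 and 0.0396. The other LILRA1 probe set had -0.07 (limma adjusted p = 0.71). These genes are named after their values were seen. In U937, 1 of the 21 rose, which is 4.76%, against 5.53% of all genes. It was LILRA2, an activating receptor that pairs with FCER1G (log2 difference 0.40, limma adjusted p = 0.0173). Its probe set 211101_x_at passed too (limma adjusted p = 0.0404), while its other probe sets did not.

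Of the other adaptors, CD79B, the ITAM-bearing beta chain of the B cell receptor, rose in both lines. It averaged 7.73 ± 0.28 in MV4-11 with CHD4 shRNA and 6.39 ± 0.12 with scrambled shRNA (SD, n = 3 each; log2 difference 1.34, limma adjusted p = 0.00041). In U937 it averaged 6.97 ± 0.21 with CHD4 shRNA and 6.37 ± 0.17 with scrambled shRNA (SD, n = 3 each; log2 difference 0.60, limma adjusted p = 0.0404). It was the only one of 6 measured adaptors of that list past the threshold (16.7%, against 8.75% of all genes in MV4-11 and 5.53% in U937). CD79A, the partner of CD79B, had -0.03 in MV4-11 and 0.04 in U937. Of 7 B cell markers 6 were measured, CD79B among them. Their summed log2 level in MV4-11 was 36.31 to 37.42 with CHD4 shRNA and 36.05 to 36.59 with scrambled shRNA. In U937 it was 36.13 to 37.12 with CHD4 shRNA and 36.53 to 37.12 with scrambled shRNA. PAX5, another of these markers, was lower in U937 (log2 difference -0.90, limma adjusted p = 0.00297) and had -0.31 in MV4-11 (limma adjusted p = 0.197). The U937 sum thus joins a rise of CD79B and a fall of PAX5. Of 7 other Fc receptors measured, 1 passed in MV4-11 (14.3%, against 8.75% of all genes) and 0 passed in U937 (0%, against 5.53%). LGALS3, an IgE-binding lectin, fell by 0.34 in MV4-11 (limma adjusted p = 0.0470). In U937, 0 of the 7 also had an unadjusted limma p under 0.05.

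Inhibitory ITIM receptors counted 2 of 17 higher in MV4-11 and 1 in U937, with 0 lower. That is 11.8% against 8.75% of all genes in MV4-11, and 5.88% against 5.53% in U937. SIRPA, the receptor for CD47, rose in both lines, by 0.53 in MV4-11 (limma adjusted p = 0.00483) and 0.49 in U937 (limma adjusted p = 0.00981), while its dimmer probe sets did not pass in either line. SIGLEC7, a sialic acid receptor, was the other in MV4-11 (log2 difference 0.60, limma adjusted p = 0.0239). Of 16 negative regulators measured, 1 passed in each line (6.25%, against 8.75% of all genes in MV4-11 and 5.53% in U937). SLA, an adaptor that dampens receptor signalling, rose by 0.65 in MV4-11 (limma adjusted p = 0.00739). INPP5D, the phosphatase SHIP1, rose by 0.34 in U937 (limma adjusted p = 0.0488), where its other probe set had 0.23 (limma adjusted p = 0.32).

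Kinases and activating effectors moved in both directions, with 6 of 47 higher and 6 lower in MV4-11, and 2 higher and 3 lower in U937. That is 25.5% against 8.75% of all genes in MV4-11, and 10.6% against 5.53% in U937. FYN, a SRC family kinase that phosphorylates ITAMs, averaged 9.04 ± 0.35 in MV4-11 with CHD4 shRNA and 7.47 ± 0.24 with scrambled shRNA (SD, n = 3 each; log2 difference 1.57, limma adjusted p = 0.000232). In U937 it averaged 8.73 ± 0.14 with CHD4 shRNA and 7.74 ± 0.08 with scrambled shRNA (SD, n = 3 each; log2 difference 0.99, limma adjusted p = 0.00497). All 3 FYN probe sets passed in MV4-11, and only this one in U937.

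FGR, another SRC family kinase, rose by 1.09 in MV4-11 (limma adjusted p = 0.00853) and had 0.79 in U937 (limma adjusted p = 0.0514). VAV1, a guanine nucleotide exchange factor, rose in both lines, by 0.46 in MV4-11 and 0.47 in U937 (limma adjusted p = 0.0202 and 0.0228). The other risers in MV4-11 were PRKCD, LAT and SKAP2, a protein kinase C, a membrane adaptor and a SRC kinase adaptor, with log2 differences of 0.73, 0.57 and 0.55. The other probe sets of LAT (0.20) and SKAP2 (-0.04 to 0.49) did not pass.

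BLNK, the linker that SYK phosphorylates in B cells, fell in both lines. It averaged 6.18 ± 0.71 in MV4-11 with CHD4 shRNA and 8.38 ± 0.25 with scrambled shRNA (SD, n = 3 each; log2 difference -2.20, limma adjusted p = 0.00928). In U937 it averaged 7.25 ± 1.06 with CHD4 shRNA and 9.03 ± 0.24 with scrambled shRNA (SD, n = 3 each; log2 difference -1.78, limma adjusted p = 0.0344). MALT1, a paracaspase downstream of these receptors, also fell in both lines, by 0.39 in MV4-11 and 0.61 in U937 (limma adjusted p = 0.0433 and 0.00649). Its probe set 210018_x_at passed in both lines, and 210017_at passed in U937 but had -0.18 in MV4-11 (limma adjusted p = 0.39).

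The other falls in MV4-11 were GAB2 (-0.73), BTK (-0.64), PIK3CB (-0.44) and LAT2 (-0.43), which serve as a docking protein, a TEC family kinase, a phosphoinositide kinase subunit and a membrane adaptor. The other probe sets of PIK3CB (-0.14) and LAT2 (-0.06) did not pass. In U937 the other fall was ITPR2, a calcium channel of the endoplasmic reticulum (log2 difference -0.72, limma adjusted p = 0.00981), which had -0.01 in MV4-11. Of its other probe sets, 202662_s_at also passed in U937 (log2 difference -0.55, limma adjusted p = 0.0248). For none of the 114 list genes did the change differ between the lines past the threshold, although 10 had an unadjusted limma p under 0.05.

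**Figure D5:**
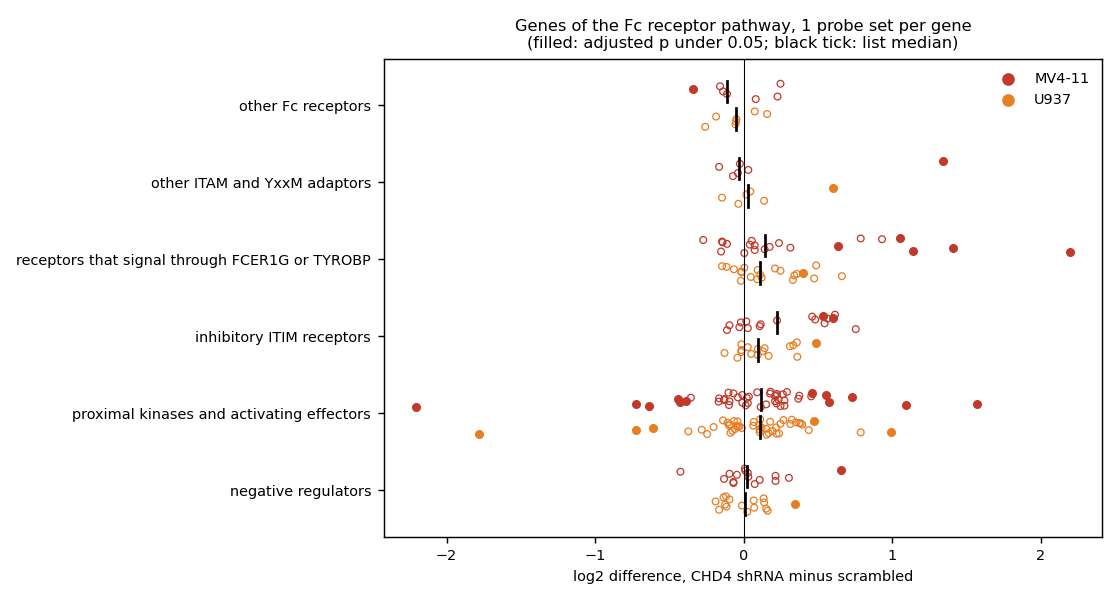
Log2 difference, CHD4 shRNA minus scrambled, of the measured genes of the 6 signalling lists in MV4-11 and in U937, with each point a gene and filled points past a limma adjusted p of 0.05. In MV4-11, 15 of 114 genes rose and 7 fell, and in U937, 6 rose and 3 fell.

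By likeness of pattern over the 12 arrays, the genes closest to FCER1G were IL1R2 (Pearson r 0.977), MMP9 (0.964), AP1S2 (0.963), DHRS9 (0.959) and RBMS1 (0.957), and TYROBP had 0.775. Those closest to TYROBP were LTC4S (0.933), ELF1 (0.933), RAC2 (0.924), CORO1B (0.920) and GTF2IRD1 (0.920). IL1R2 is the decoy receptor of interleukin-1, MMP9 a matrix metalloproteinase and LTC4S the leukotriene C4 synthase. The 12 points are 4 groups of 3 arrays and share the group differences, so these values describe the pattern and are given without a test.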

How the data were processed

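Total RNA of 12 samples, 3 for each combination of line and shRNA, was hybridised as biotinylated cRNA to Affymetrix arrays. Per the submitters' processing notes, the authors used RMA for the log2 values they deposited. RMA equalises the arrays' distributions, which hides a shift common to most genes. The RMA version is not given in the sources used here, nor is joint processing of the arrays. In the sample labels the target reads CDH4, in the series description CHD4; the name CHD4 is used because its probe sets were lower. Values ran from 2.54 to 15.11, with array medians of 6.97 to 7.02, which is a log2 scale. No detection calls were used, and the number of arrays limits the precision.

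Of 22277 probe sets, 62 controls were left out. The platform annotation gave 1 gene symbol to 19064 of the 22215 tested and several to 1043, and 2108 stayed unnamed. limma 3.58.1 in R 4.3.3 (lmFit, eBayes without trend) fitted 4 groups to 12 arrays (8 residual and 4.86 prior degrees of freedom), with Benjamini-Hochberg adjustment over all probe sets. The fit was tested on simulated data. An exact permutation test of 3 arrays against 3 cannot give a p below 0.1 and was not used. The members and lists were chosen with earlier results of these data known.

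Every member probe set is named. Up to 12 list genes were to be named by the lowest p among the 25 past the threshold in either line. In the end all 25 are named, and those beyond the 12 were added after their values were seen. For likeness, the 5 genes with the highest r are named. Arrays of the same replicate number deviated together in MV4-11 (r = 0.432, 0.469 and 0.494 over probe sets), so the numbers were taken to pair them there. This pairing rests on the titles' numbers and the correlation. Alternatives changed the probe set rule, a filter on dim probe sets, normalization, variance model, arrays in the fit, replicate blocks and left out each array; the block in MV4-11 alone was chosen after seeing the data.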

Additional observations from a re-analysis of the deposited data

How the results depend on the processing

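FCER1G kept its direction and passed in all alternatives run, 22 in MV4-11 (log2 difference 1.34 to 1.54) and 21 in U937 (0.98 to 1.41). The MV4-11 count of 2 members was 1 without the dimmest 25% of probe sets, where FCER1A is left out by construction, 1 with trend and robust fitting and 1 with only the groups compared, and ranged from 1 to 3 when leaving out each array. The count of 3 members lower in scrambled MV4-11 was 6 with only the groups compared, of which 5 were lower and FCER1A was higher, where 5.48% of all probe sets passed, and 3 to 4 when leaving out each array. The U937 count was 1 and the count for the difference of changes 0 without each array. The MV4-11 list count of 22 was 10 with only the groups compared (8.77%, against 3.82% of all genes), 37 with the replicate block within each line (32.5%, against 18.6%), 35 with the block in MV4-11 alone (30.7%, against 14.8%), and 8 to 33 without each array (7.02% to 28.9%, against 2.95% to 15.5%). The U937 list count of 9 was 17 with the block within each line (14.9%, against 11.4%) and 4 to 10 without each array (3.51% to 8.77%, against 2.21% to 6.61%). In U937, same-numbered arrays had r = 0.012, 0.344 and 0.36, and arrays of different number had -0.412 to 0.174. The U937 numbers were not taken to pair the arrays, and whether they do is not known. The causes were not tested. The scrambled controls could not be fitted with the block within each line. No result reversed. Among single probe sets, 1235 values stayed on their side of the threshold, 10 passed newly, 13 no longer passed and 73 changed sign without having been past it. The dim probe sets of FCGR1A, FCGR3B and FCER1A limit what could be seen there.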
